A study of Mus musculus with 111 samples.

Results

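F-box proteins were examined here as a gene family: all genes whose platform symbol is Fbxo, Fbxl or Fbxw followed by a digit, leaving out Fbxo32 (atrogin-1). There were 66 such genes among the 18194 genes with a probe set that lists a single gene, 31 with an Fbxo symbol, 17 with Fbxl and 18 with Fbxw. Of these, 57 had signals high enough to be tested, out of 16029 genes tested. F-box proteins carry the substrate of an SCF ubiquitin ligase, in which Skp1 joins the F-box protein to the scaffold Cul1 and its RING subunit, so that the substrate is marked with ubiquitin for the proteasome. The letters name the part that holds the substrate: leucine-rich repeats in Fbxl proteins, WD40 repeats in Fbxw proteins and other or no known domains in Fbxo proteins. In skeletal muscle the family is best known through atrogin-1, and Fbxo30 (MUSA1) and Fbxo21 (SMART) have been described as further ubiquitin ligases of muscle wasting in mice.

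The measurements came from gastrocnemius muscles of 70 male C57BL/6 mice, 1 array per muscle. The cast legs were right legs immobilised for 2, 7 or 14 days (10, 7 and 9 muscles), against uncast left legs of casting animals (9, 8 and 9 muscles). In the tenotomy animals, the left legs are labelled tenotomy (5, 7 and 5 muscles at days 2, 7 and 14) and the right legs are labelled control (5, 7 and 5 muscles). Sham-operated animals, whose Achilles tendon was isolated and handled but left whole, gave 3, 7 and 8 muscles on these days, and naive animals without any manipulation gave 7. Casting and tenotomy animals were 8 weeks old. All sham and naive muscles were right legs, and their labels give no age. All are the same inbred strain and sex, and in both models the leg on the other side of the same animals serves as control, so the leg side goes with the treatment.

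The study's design text states that the right tendon was cut, whereas the labels of the muscles give tenotomy to the left legs. The labels were kept, and every tenotomy value below names the leg. Markers of other cell types stood apart from sham in both legs, in different ways. In right legs 9, 9 and 3 of 9 macrophage markers were higher than sham at days 2, 7 and 14, and in left legs 0, 1 and 5 of 9 were lower. Of 4 endothelial markers, 2, 3 and 2 were lower in left legs and 2, 2 and 2 in right legs. In each leg 1 of the 4 was higher than sham at day 7 and at day 14. At day 2, 9 macrophage markers had a summed signal of 744 to 1527 in left legs (median 1242), against 10969 to 13632 in right legs (median 12398) and 1194 to 2254 in sham muscles. Fibre markers summed to 72900 to 83600 in left legs at day 2, against 47117 to 69100 in right legs. As a check of the labelled tissue, the 5 fibre markers summed to at least 23197 in every muscle. In whole muscle, fewer cells of a type and less RNA per cell cannot be told apart. The deposited values are MAS5 signal intensities scaled to a common mean, so signals are compared here between groups for 1 probe set at a time and never between genes.

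A gene was called when its adjusted p in limma, over all genes tested in that comparison, was under 0.05. The cast leg was set against the control leg to ask which F-box genes respond to immobilisation. At day 2, 12 members were called in cast legs, 11 of them higher and 1 lower, where 24.3 percent of all genes tested were called (11.0 percent higher and 13.3 percent lower). The members called were 21.1 percent of the 57, near the background, while 19.3 percent were higher and 1.75 percent lower. At day 7, 4 members were called (3 higher and 1 lower), against a background of 8.78 percent (4.22 higher and 4.56 lower). At day 14, 5 members were called (2 higher and 3 lower), against a background of 13.3 percent (7.23 higher and 6.05 lower). By the probe set that stood for each gene, no Fbxw gene was called on any casting day, and Fbxo genes made up 11 of the 12 calls at day 2. Other probe sets of Fbxw2 (1 of 6, higher), Fbxw8 (1 of 3, higher) and Fbxw11 (2 of 5, lower) were called at day 2, and no difference between subfamilies was tested.

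The left leg was set against the right leg in tenotomy animals for the same question about tendon cutting, with the direction given by the labels. At day 2, 20 members were called, 12 of them higher and 8 lower in the left leg, against a background of 36.8 percent (15.9 percent higher and 20.8 percent lower). At day 7, 15 members were called, 10 higher and 5 lower, against 33.0 percent of all genes (14.6 higher and 18.4 lower). At day 14, 11 members were called, 7 higher and 4 lower, against 23.2 percent of all genes (9.72 higher and 13.5 lower). The shares of members called, 35.1, 26.3 and 19.3 percent, were below those of all genes on each day. All 3 subfamilies took part at day 2, with 10 of 28 Fbxo, 3 of 15 Fbxl and 7 of 14 Fbxw genes called. Over the 6 leg comparisons, 31 members were called at least once and 26 never, so that 54.4 percent were called at least once, against 59.6 percent of all genes tested. After casting 16 were called on at least 1 day (28.1 percent, against 33.8 percent of all genes), in tenotomy animals 24 (42.1 percent, against 48.6 percent) and in both 9 (15.8 percent, against 22.8 percent). No member was called on all 3 casting days, where 2.76 percent of all genes were, and 8 were called on all 3 tenotomy days (14.0 percent, against 15.5 percent). Those 8 were Fbxo9, Fbxo31, Fbxo3, Fbxw5, Fbxo45, Fbxo6 and Fbxw4, higher in the left leg each time, and Fbxo33, lower each time.

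**Figure D1:**
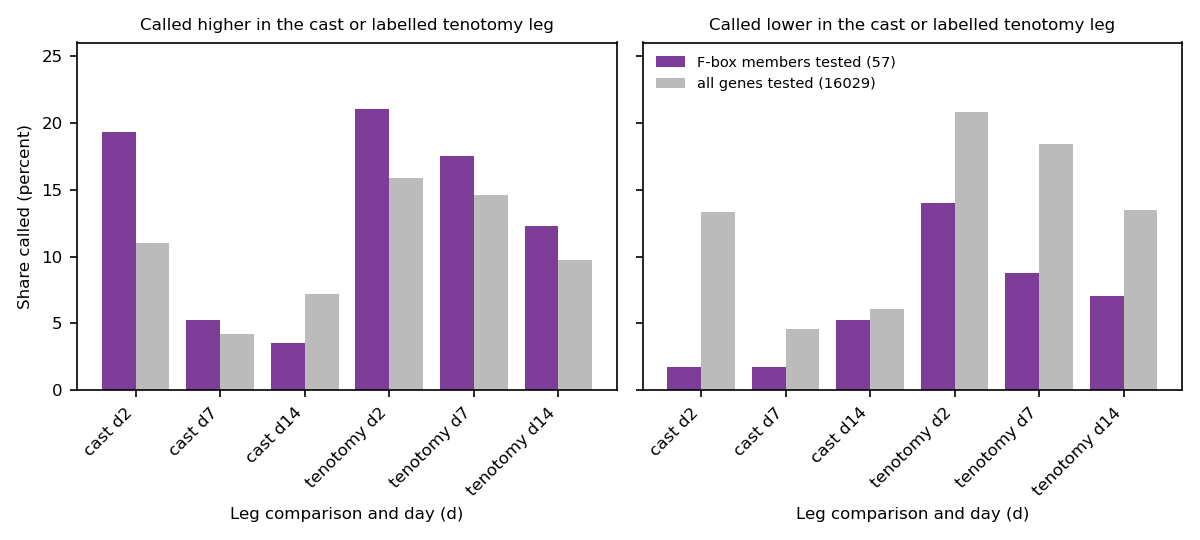
Share of the 57 tested F-box members and of all 16029 tested genes called higher (left panel) or lower (right panel), in percent, in the cast leg against the control leg and in the left leg labelled tenotomy against the right leg labelled control, by day. After 2 days of casting 19.3 percent of members were higher, beside 11.0 percent of all genes, and 1.75 percent were lower, beside 13.3 percent.

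**Figure D2:**
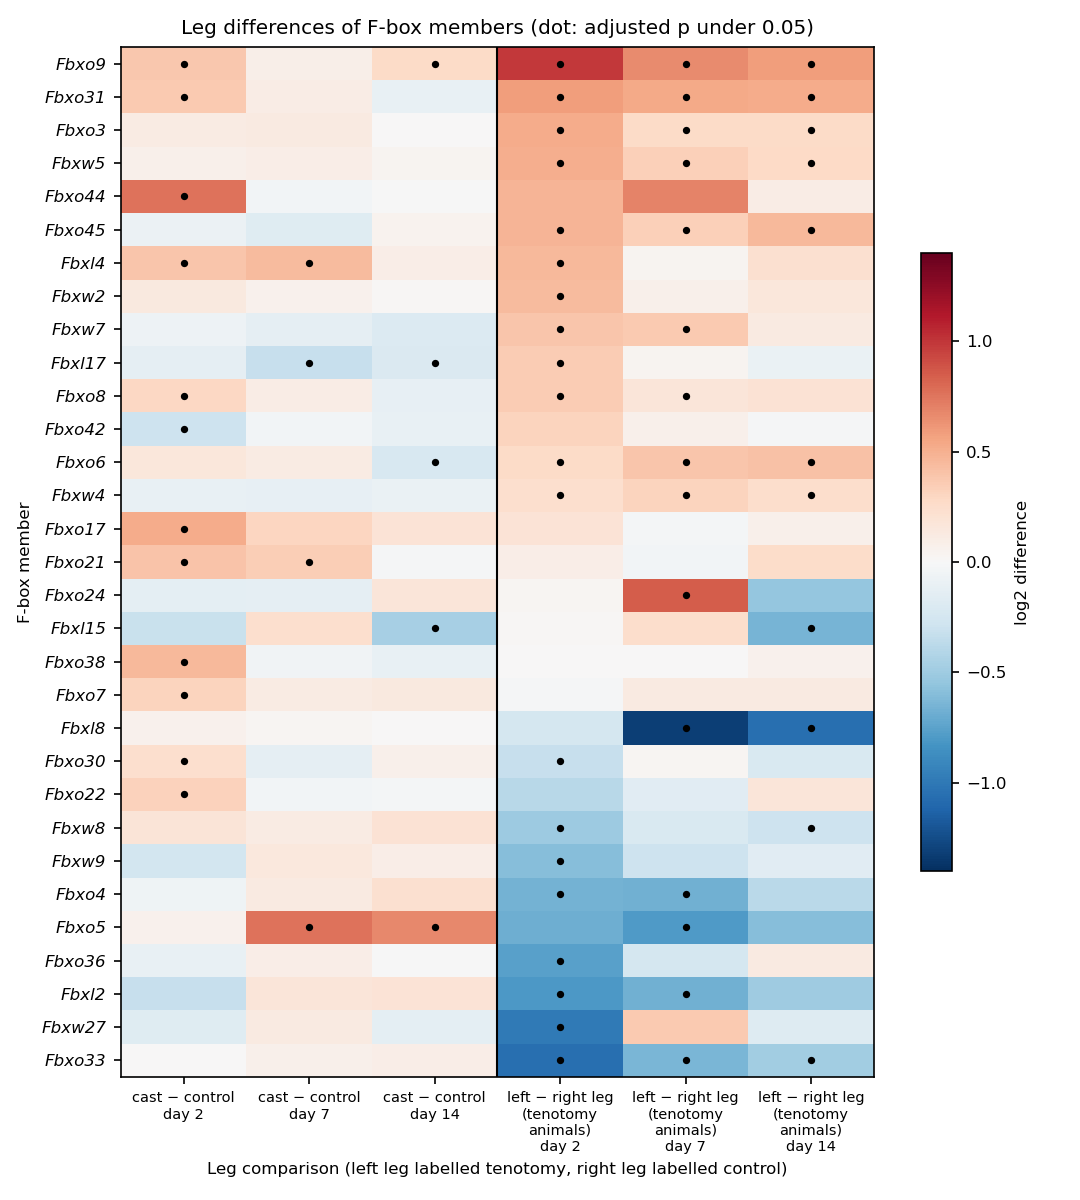
Log2 difference of the 31 members called in at least 1 of the 6 leg comparisons, cast minus control leg (columns 1 to 3) and left leg labelled tenotomy minus right leg labelled control (columns 4 to 6), ordered by the tenotomy difference at day 2; a dot marks an adjusted p under 0.05. Fbxo9 stands at the top with a difference of 0.99 in the tenotomy column of day 2 and Fbxo33 at the bottom with -1.06.

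Fbxo9, the F-box protein that targets the mTOR adaptors Tel2 and Tti1 for degradation in human cells, had the largest left-to-right difference upward at day 2. Its signal was 595.8, 490.2, 514.6, 440.0 and 516.9 in the left legs, against 265.7, 305.0, 245.9, 238.2 and 225.1 in the right legs. Every left leg exceeded every right leg, and the right legs lay below all sham muscles of that day (539.6, 558.3 and 682.2). The log2 difference between left and right legs was 0.99 (SE 0.12, limma adjusted p = 1.5e-11), higher in the left leg of 5 of 5 animals. At day 7 the left legs spanned 430.9 to 613.2 (median 540.8), against 262.9 to 432.8 (median 307.0) in the right legs, a log2 difference of 0.67 (SE 0.10, limma adjusted p = 3.89e-08). At day 14 the left legs had 604.4, 577.2, 539.5, 521.6 and 592.4, against 380.0, 442.2, 330.1, 317.6 and 415.3 in the right legs, and the groups did not overlap. The log2 difference at day 14 was 0.59 (SE 0.12, limma adjusted p = 7.01e-05).

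Fbxo9 was also higher in cast legs than in the control legs of casting animals. Naive muscles had signals of 529.6 to 720.1 (median 681.7), and the control legs, averaged over days, were lower than naive. Cast legs at day 2 spanned 573.8 to 785.2 (median 669.65), against 426.2 to 615.0 (median 539.4) in control legs. The ranges overlapped, and 8 of 9 animals with both legs had the higher signal in the cast leg. The mean signal was 673.1 ± 73.9 in cast legs and 517.6 ± 61.2 in control legs (SD, n = 10 and 9), a log2 difference of 0.38 (SE 0.09, limma adjusted p = 0.000382). At day 7 the log2 difference was 0.08 (limma adjusted p = 0.734). At day 14 cast legs spanned 430.1 to 688.9 (median 597.4), against 351.6 to 622.9 (median 498.8), a difference of 0.27 (SE 0.09, limma adjusted p = 0.0303). With the animal as a fixed block that last call was lost (limma adjusted p = 0.0681), and with the mean of its probe sets it was lost as well (adjusted p = 0.0810).

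Fbxo31, which directs cyclin D1 to degradation after DNA damage, was higher in the left leg on each day, and the groups did not overlap on any of the days. At day 2 the left legs had 1289, 1175, 1379, 1251 and 1159, against 957.3, 678.6, 707.6, 1040 and 818.2 in the right legs (log2 difference 0.59, SE 0.13, limma adjusted p = 6.99e-05). At day 7 they spanned 843.5 to 995.8 (median 874.3), against 424.4 to 797.1 (median 550.9) in right legs. At day 14 the left legs had 882.6, 1172, 969.1, 936.0 and 968.4, against 602.4, 590.0, 733.4, 741.7 and 769.7 in the right legs. The differences on these later days were 0.54 (SE 0.11, limma adjusted p = 2.55e-05) and 0.52 (SE 0.13, limma adjusted p = 0.00103). A second probe set of Fbxo31 did not differ at day 2 between the legs of tenotomy animals (log2 difference -0.08, adjusted p = 0.700), and the mean of its probe sets was not called there (adjusted p = 0.102). After casting, Fbxo31 was called at day 2, with cast legs at 846.6 to 1477 (median 1254.5), against 787.5 to 1132 (median 897.2) in control legs. Its difference was 0.36 (SE 0.09, limma adjusted p = 0.00136), with 8 of 9 animals higher in the cast leg, and the ranges overlapped.

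Fbxo3 marks the membrane-bound F-box protein Fbxl2 for degradation in mouse and human cells, and both genes were called in tenotomy animals in opposite directions. Fbxo3 signal at day 2 was 855.2, 774.4, 764.8, 797.5 and 926.6 in left legs, against 498.9, 726.5, 569.1, 572.6 and 513.1 in right legs. The groups did not overlap, and the log2 difference was 0.52 (SE 0.08, limma adjusted p = 1.35e-08). All 5 left legs lay below the sham muscles of that day, at 1095, 1109 and 1190. At day 7 Fbxo3 spanned 800.1 to 945.0 (median 907.1) in left legs, against 631.4 to 829.3 (median 761.9) in right legs. At day 14 it was 1045, 816.8, 974.1, 847.8 and 944.0 in left legs, against 817.8, 814.3, 672.7, 731.0 and 792.8 in right legs. Both differences were 0.27 (SE 0.07 and 0.08, limma adjusted p = 0.000554 and 0.00556), with a narrow overlap of the groups. By the probe set that stood for it, Fbxo3 was not called after casting on any day (limma adjusted p = 0.119, 0.239 and 0.988 at days 2, 7 and 14). Of its 5 probe sets, 1 was called higher in cast legs at day 2.

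Fbxl2 lay near the low end of the arrays, with a median under 17.84, the highest signal that the filter required of any array, in every group. At day 2 it was 7.096, 7.15, 0.839, 8.268 and 7.167 in left legs, against 6.679, 13.34, 14.09, 25.33 and 9.681 in right legs. The groups overlapped, all 5 animals had the lower signal in the left leg, and the log2 difference was -0.81 (SE 0.32, limma adjusted p = 0.0353). The call was lost without left leg replicate 3, the lowest value (adjusted p = 0.188), and without right leg replicate 2, 3 or 4 (adjusted p = 0.0545, 0.0635 and 0.154). At day 7 the left legs spanned 2.183 to 17.57 (median 5.932), against 8.727 to 17.64 (median 10.57) in right legs, a difference of -0.67 (SE 0.27, limma adjusted p = 0.042, and 0.125 with array weights).

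Fbxw5, a substrate receptor for the centriole protein Sas-6 in human cells, was higher in the left leg on all 3 days and was not called after casting (limma adjusted p = 0.402, 0.435 and 0.721). At day 2 it was 377.0, 388.1, 400.0, 317.5 and 403.2 in left legs, against 291.5, 249.4, 208.9, 324.8 and 254.8 in right legs. A single left leg lay below the highest right leg, and the log2 difference was 0.51 (SE 0.08, limma adjusted p = 4.43e-08). At day 7 Fbxw5 spanned 315.0 to 404.2 (median 355.5) in left legs, against 223.0 to 394.0 (median 282.0) in right legs. At day 14 the left legs had 330.2, 401.7, 324.8, 338.6 and 379.4, all above the right legs at 315.5, 267.9, 287.1, 291.2 and 290.6. The later differences were 0.34 (SE 0.07, limma adjusted p = 1.85e-05) and 0.28 (SE 0.08, limma adjusted p = 0.00422).

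Fbxo45, the F-box partner of the neuronal ligase PHR1 that is needed for neuromuscular synapses in mice, was 263.5, 261.6, 253.3, 283.5 and 297.1 in left legs at day 2, against 198.0, 206.7, 173.9, 214.0 and 182.0 in right legs. The groups did not overlap. Its log2 differences at days 2, 7 and 14 were 0.47, 0.34 and 0.46 (SE 0.09, 0.07 and 0.09, limma adjusted p = 4.44e-06, 0.000139 and 3.29e-05). Fbxo6, which binds N-linked sugar chains of misfolded glycoproteins, and Fbxw4, mutated in the limb defect dactylaplasia of mice, were higher by smaller amounts. Fbxo6 differed by 0.27, 0.39 and 0.41, and Fbxw4 by 0.24, 0.31 and 0.25. With the mean of its probe sets Fbxo6 was not called at day 2 or 7 (adjusted p = 0.212 and 0.116). The day 2 call of Fbxo6 (adjusted p = 0.0337) was lost without left leg replicate 3 or 4 or right leg replicate 4 or 5 (adjusted p = 0.0573 to 0.169). The day 2 and day 14 calls of Fbxw4 were each lost without any of 5 single muscles (adjusted p = 0.0574 to 0.242 and 0.0610 to 0.207), and the day 14 call also with animals fitted as fixed blocks (adjusted p = 0.104).

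**Figure D3:**
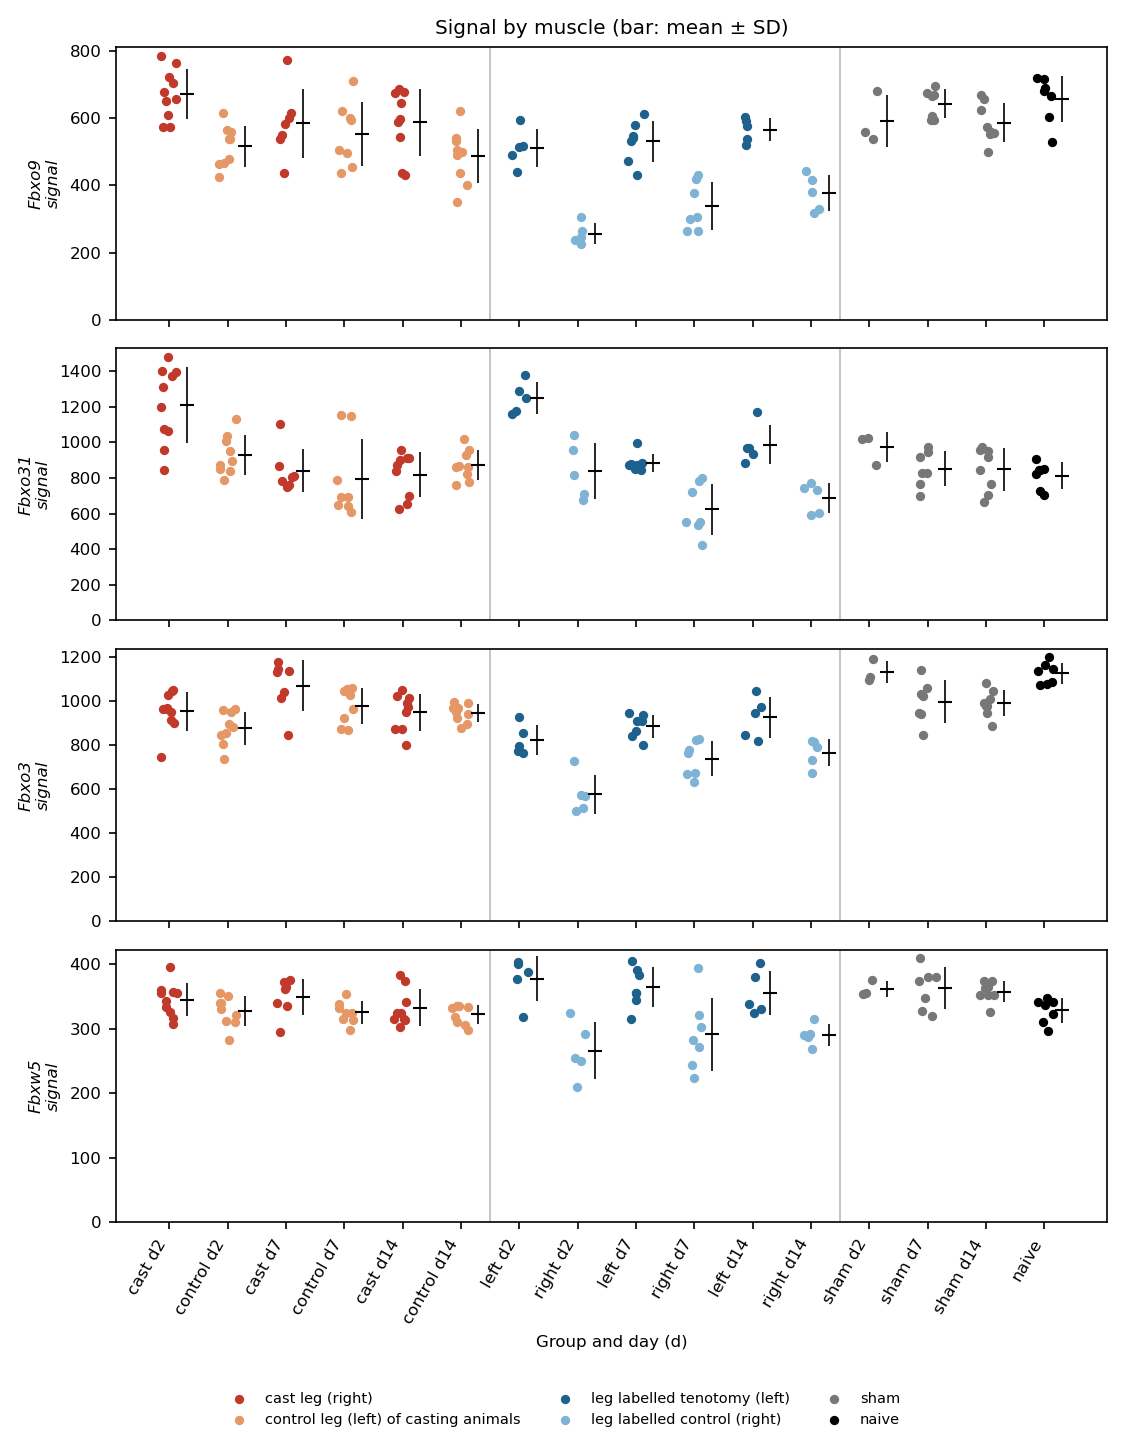
Signal (MAS5 intensity, linear scale from 0) of Fbxo9, Fbxo31, Fbxo3 and Fbxw5 in each of the 111 muscles by group and day, with the mean and SD of each group beside its points. The right legs of tenotomy animals form the low groups of Fbxo9, at 225.1 to 305.0 on day 2, while their left legs lie at 440.0 to 595.8.

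Other members higher in the left leg at day 2 were Fbxw7, which targets cyclin E, Myc and Notch, with a log2 difference of 0.38, and Fbxo8, which also has a Sec7 domain, with 0.35. Fbxo8 was 251.1 to 293.5 in left legs at day 2, against 197.6 to 231.6 in right legs, without overlap. Both were called at day 7 too, at 0.36 and 0.17, the Fbxo8 call being lost with animals fitted as fixed blocks (adjusted p = 0.0856). Fbxw2 differed by 0.44 at day 2 by its brightest probe set and by 0.07 with the mean of its probe sets (adjusted p = 0.619). Fbxl4, a mitochondrial protein whose loss depletes mitochondrial DNA in humans, differed by 0.45 (SE 0.10, limma adjusted p = 8.94e-05). Fbxl17, which removes wrongly paired BTB-domain proteins, differed by 0.36 (SE 0.08), and its day 14 minus day 2 change was the only member call in the tenotomy time comparison (1 of 57, against 8.18 percent of all genes, 5.31 higher and 2.87 lower).

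Fbxo33, which directs ubiquitination of the RNA-binding protein YB-1 in human cells, ran the other way. At day 2 it was 52.0, 58.9, 42.29, 61.88 and 46.43 in left legs, against 97.95, 114.0, 132.9, 99.09 and 120.5 in right legs. The groups did not overlap, the left legs overlapped the sham muscles (55.27, 43.52 and 31.15), and the log2 difference was -1.06 (SE 0.16, limma adjusted p = 1.31e-08). At day 7 it spanned 49.26 to 92.26 (median 61.77) in left legs, against 79.85 to 133.5 (median 100.2) in right legs, a difference of -0.64 (SE 0.13, limma adjusted p = 4.12e-05), lower in 7 of 7 animals. At day 14 it was 55.25, 39.26, 53.69, 60.57 and 53.29 in left legs, against 67.31, 79.5, 99.97, 85.13 and 49.62 in right legs. These overlapped through a single right leg, and the difference was -0.49 (SE 0.16, limma adjusted p = 0.0154). Without left leg replicate 2 or right leg replicate 3 the day 14 call was lost (adjusted p = 0.0940 and 0.111), as with animals fitted as fixed blocks (adjusted p = 0.0615) and after quantile normalization (adjusted p = 0.0998). A second probe set gave -0.93, -0.47 and -0.30, the last not called (adjusted p = 0.0649). Fbxo33 did not differ between cast and control legs (log2 difference 0.01, 0.07 and 0.09).

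The promoters of Fbxo9, Fbxo31 and Fbxo33 are shown because these genes moved furthest or most steadily between the legs of tenotomy animals, and that of Fbxo21 because it answered to casting. RefSeq sequences of build GRCm38.p6 run from 250 bases before to 50 bases after the gene start, on the strand of the gene, and capitals mark the GC box GGGCGG and the CCAAT box on either strand. Neither motif overlaps the other in these windows.
Fbxo9 (chr9:78108607-78108906, minus strand): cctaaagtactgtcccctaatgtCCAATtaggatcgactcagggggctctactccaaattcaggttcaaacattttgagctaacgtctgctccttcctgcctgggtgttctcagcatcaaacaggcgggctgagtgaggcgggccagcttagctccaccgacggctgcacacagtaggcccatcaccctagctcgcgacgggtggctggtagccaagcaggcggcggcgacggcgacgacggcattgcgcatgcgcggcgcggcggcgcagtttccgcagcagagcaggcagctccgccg
Fbxo31 (chr8:121578757-121579056, minus strand): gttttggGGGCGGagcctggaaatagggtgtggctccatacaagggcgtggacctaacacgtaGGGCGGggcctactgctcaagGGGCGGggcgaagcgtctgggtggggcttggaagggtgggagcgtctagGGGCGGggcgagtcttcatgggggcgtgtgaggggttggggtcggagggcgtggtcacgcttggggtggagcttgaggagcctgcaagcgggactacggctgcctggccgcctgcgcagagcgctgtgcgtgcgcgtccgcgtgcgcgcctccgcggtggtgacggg
Fbxo33 (chr12:59219434-59219733, minus strand): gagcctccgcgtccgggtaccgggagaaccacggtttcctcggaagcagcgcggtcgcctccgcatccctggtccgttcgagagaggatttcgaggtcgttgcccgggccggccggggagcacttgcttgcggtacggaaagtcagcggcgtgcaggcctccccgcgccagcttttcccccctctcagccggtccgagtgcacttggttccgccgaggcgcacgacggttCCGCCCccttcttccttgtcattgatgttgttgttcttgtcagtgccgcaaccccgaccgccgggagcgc
Fbxo21 (chr5:117976520-117976819, plus strand): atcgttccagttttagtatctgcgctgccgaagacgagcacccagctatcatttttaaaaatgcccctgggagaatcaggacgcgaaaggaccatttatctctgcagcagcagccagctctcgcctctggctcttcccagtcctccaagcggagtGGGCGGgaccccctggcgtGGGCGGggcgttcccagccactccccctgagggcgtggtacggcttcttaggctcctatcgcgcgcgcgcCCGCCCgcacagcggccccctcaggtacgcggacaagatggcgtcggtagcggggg

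The printed Fbxo9 window, one of 2 in the table, holds 1 CCAAT box and no GC box, whereas the Fbxo31, Fbxo21 and Fbxo33 windows hold 4, 3 and 1 GC boxes. Of the 66 members, 49 matched the promoter table by symbol, with 68 promoters in all. A GC box was present in 58.8 percent of these 68 windows, against 35.7 percent of all 32851 promoters in the table, and a CCAAT box in 26.5 percent, against 37.4 percent. The E-box CACGTG was in 5.88 percent, against 7.15 percent. The FOXO element GTAAACA, searched like the other motifs on both strands, was found in 0 of the 68 windows, against 3.65 percent of all promoters. TATAAA was found in 1 window, that of Fbxw7, 1.47 percent against 13.6 percent. These are counts of letters within 300 bases and carry no test.

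Fbxo4, which targets cyclin D1 and the telomere protein Trf1, was 30.02, 21.23, 30.48, 25.57 and 28.02 in left legs at day 2, against 46.79, 39.65, 48.19, 43.05 and 46.84 in right legs. The groups did not overlap, and the log2 difference was -0.66 (SE 0.17, limma adjusted p = 0.00112). At day 7 it spanned 13.64 to 28.59 (median 23.4) in left legs, against 30.16 to 57.09 (median 36.71) in right legs, again without overlap (difference -0.67, SE 0.15, limma adjusted p = 0.000106). The mean of its probe sets was not called at day 7 (-0.27, adjusted p = 0.254). Fbxo5 (Emi1), the inhibitor of the anaphase-promoting complex, spanned 2.291 to 23.77 (median 19.64) in left legs at day 7, against 23.66 to 37.77 (median 29.04) in right legs. The ranges barely touched, and the difference was -0.80 (SE 0.26, limma adjusted p = 0.00977), lower in 6 of 7 animals. Markers of dividing cells were also lower in left legs at day 7, in 3 of 3 tested. Their summed signal that day was 23.8 to 58.0 in left legs, against 77.6 to 334 in right legs. At day 2, when Fbxo5 was not called between the legs, it was 20.7 to 164 in left legs, against 327 to 431 in right legs. The part of these markers in the Fbxo5 result was not tested.

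After casting, Fbxo5 was called higher on the later days. Cast legs at day 7 spanned 4.617 to 22.51 (median 18.16), against 3.217 to 16.58 (median 8.816) in control legs, and at day 14 they spanned 12.76 to 29.14 (median 18.15), against 2.502 to 22.78 (median 12.92). The ranges overlapped on both days. The log2 differences were 0.76 (SE 0.25, limma adjusted p = 0.0368) and 0.67 (SE 0.23, limma adjusted p = 0.0333). Both calls were lost when 3 arrays whose dim signals were raised (cast leg day 7 replicate 3, cast leg day 14 replicate 6 and sham day 14 replicate 8) were left out, with an adjusted p of 0.106 and 0.0531. They were also lost with animals fitted as fixed blocks (adjusted p = 0.0613 and 0.0502). Of the dividing-cell markers, 0 were called at day 7 and 2 were higher in cast legs at day 14.

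**Figure D4:**
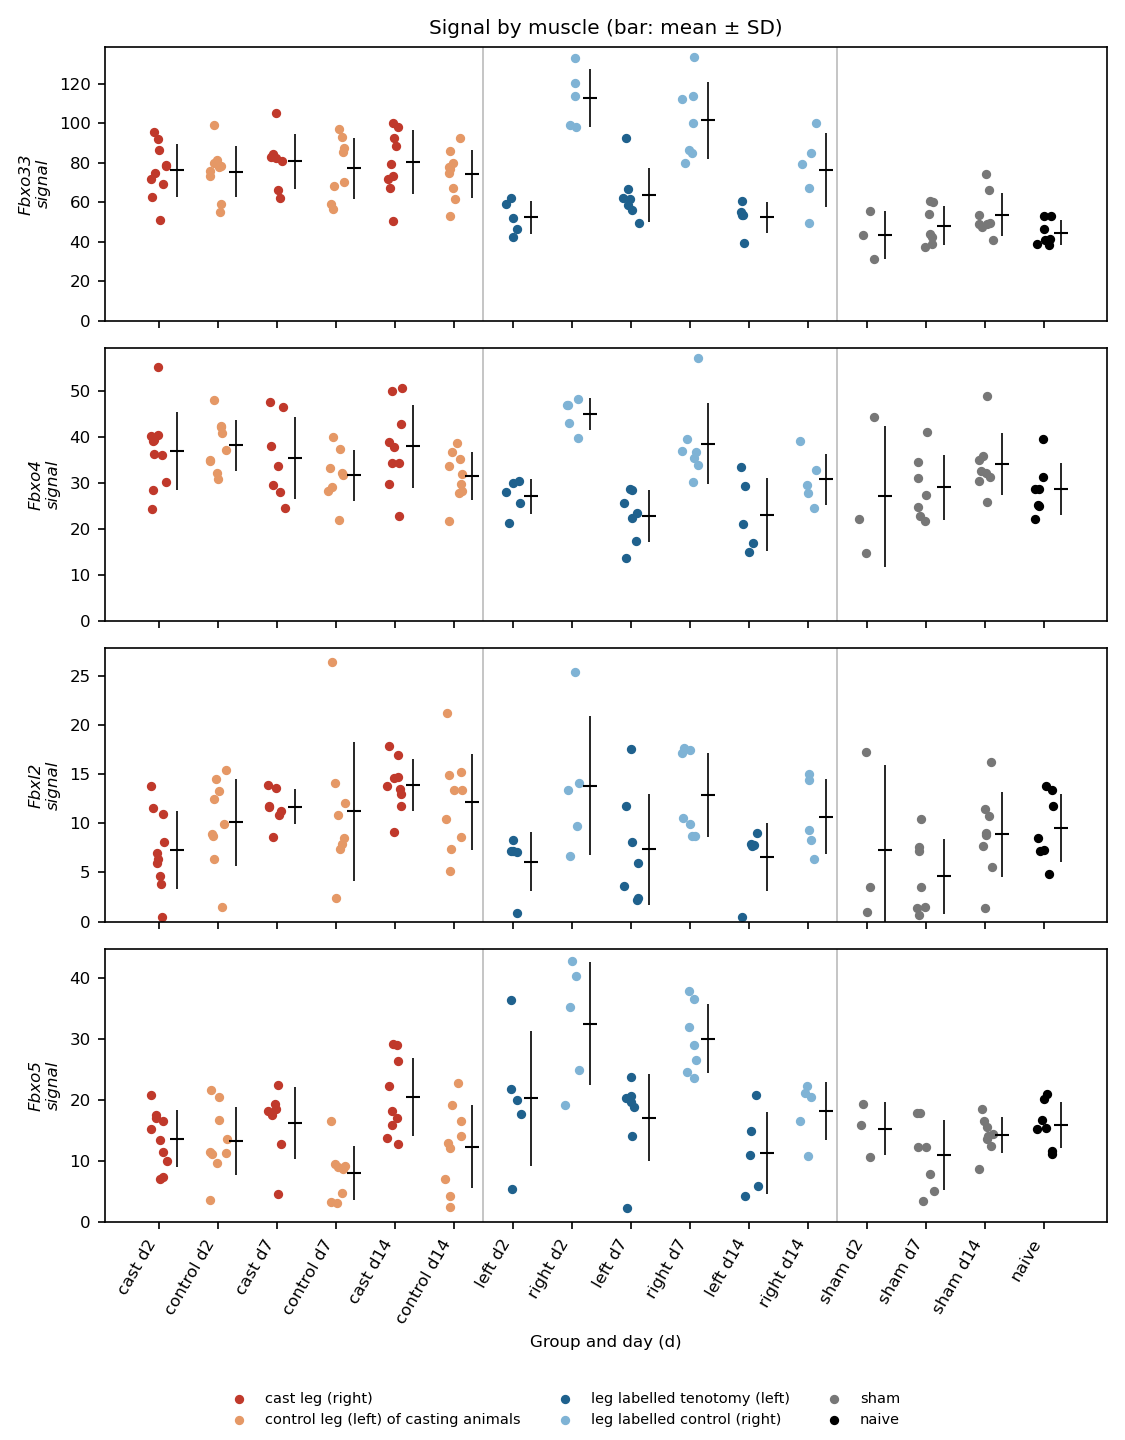
Signal (MAS5 intensity, linear scale from 0) of Fbxo33, Fbxo4, Fbxl2 and Fbxo5 in each of the 111 muscles by group and day, with the mean and SD of each group beside its points. Left legs of tenotomy animals lie below right legs for Fbxo33 at day 2, at 42.29 to 61.88 against 97.95 to 132.9.

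Fbxl8, Fbxl15 and Fbxw8 were lower in the left leg on some days. Fbxl8 at day 7 spanned 2.782 to 20.78 (median 4.909) in left legs, against 6.706 to 35.54 (median 26.1) in right legs, with overlap. Its difference was -1.32 (SE 0.32, limma adjusted p = 0.000609), lower in 6 of 7 animals. At day 14 it was 4.687, 19.37, 4.131, 3.629 and 2.192 in left legs, against 29.33, 18.38, 17.41, 15.66 and 5.668 in right legs. That difference of -1.05 (SE 0.39, limma adjusted p = 0.0366) was lost without any of 8 of the 10 muscles (adjusted p = 0.0566 to 0.134) and with animals fitted as fixed blocks (adjusted p = 0.0954).

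Fbxl15, which targets the BMP-pathway ligase Smurf1, was lower at day 14 in cast legs and in the left legs of tenotomy animals. If the right leg was operated, Fbxl15 was higher in the operated leg than in the left leg. The right-minus-left difference was larger in tenotomy than in casting animals by 1.12 (limma adjusted p = 0.0029). Cast legs spanned 13.84 to 42.72 (median 30.19), against 27.02 to 51.11 (median 42.43) in control legs, with 8 of 9 animals lower in the cast leg. The left legs of tenotomy animals had 40.6, 30.73, 8.811, 30.89 and 35.01, against 46.12, 38.57, 37.33, 55.04 and 46.26 in right legs, where the ranges overlap through the highest left leg. The casting difference was -0.47 (SE 0.16, limma adjusted p = 0.0407) and the tenotomy difference -0.65 (SE 0.22, limma adjusted p = 0.0199). Without left leg replicate 3 the tenotomy difference was -0.33 (adjusted p = 0.308), without right leg replicate 4 its adjusted p was 0.0594, and without the raised arrays the casting call was lost (adjusted p = 0.0511). With the animal as a fixed block neither was called (adjusted p = 0.0727 and 0.0927). Sham muscles of day 14 spanned 32.06 to 55.74, and all right legs of tenotomy animals lay within that range. The left legs were lower than sham by -0.67 (limma adjusted p = 0.0117), a call lost without left leg replicate 3 (-0.35, adjusted p = 0.244).

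Fbxw8, which works with Cul7 in place of Cul1, had 240.3, 258.4, 220.9, 229.3 and 270.6 in left legs at day 2, against 416.9, 302.4, 377.6, 331.6 and 321.2 in right legs. The groups did not overlap, and the log2 difference was -0.51 (SE 0.11, limma adjusted p = 9.37e-05). The mean of its probe sets gave -0.06 (adjusted p = 0.789). At day 14 the difference was -0.29 (adjusted p = 0.0485), which was lost without any of 6 single muscles (adjusted p = 0.0836 to 0.220) and with animals fitted as fixed blocks (adjusted p = 0.368). Further members were lower at day 2, with log2 differences of -0.76 for Fbxo36, -0.60 for Fbxw9 and -0.99 for Fbxw27, a dim gene with close mouse paralogs. Each of these calls was lost without certain single muscles (adjusted p = 0.0551 for Fbxo36 without right leg replicate 3, 0.0658 to 0.276 for 3 muscles with Fbxw9, and 0.0534 to 0.0862 for 6 muscles with Fbxw27). With the mean of their probe sets Fbxo36 (-0.36, adjusted p = 0.134) and Fbxw9 (-0.44, adjusted p = 0.0740) were not called, and with animals fitted as fixed blocks Fbxw9 was not called (adjusted p = 0.0771). Fbxo24 was higher in left legs at day 7, by 0.85 (SE 0.28, limma adjusted p = 0.0138), and was not called with animals fitted as fixed blocks (adjusted p = 0.0529). It was dim, with a mean signal of 5.15 over all muscles, under the filter level of 9.649 to 17.84.

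By the probe set that stood for each gene, the members called at day 2 of casting were Fbxo genes and Fbxl4. They were 21.1 percent of the members tested, against 24.3 percent of all genes, and no difference between subfamilies was tested. Fbxo21, the ligase named SMART, spanned 114.9 to 213.7 (median 152.2) in cast legs at day 2, against 88.58 to 141.9 (median 110.3) in control legs. The ranges overlapped, 8 of 9 animals were higher in the cast leg, and the log2 difference was 0.40 (SE 0.10, limma adjusted p = 0.000971). At day 7 it spanned 91.73 to 193.8 (median 135.9), against 90.65 to 123.4 (median 111.1), a difference of 0.35 (SE 0.11, limma adjusted p = 0.032). Without the raised arrays the day 7 call was lost (adjusted p = 0.0523), as with the mean of its probe sets (adjusted p = 0.120). At day 14 the cast legs spanned 88.72 to 146.5 (median 114.7), against 99.77 to 138.6 (median 113.6) in control legs, a difference of -0.02. The change between day 14 and day 2 was itself called (-0.42, SE 0.14, limma adjusted p = 0.0322). Fbxo21 was not called in tenotomy animals (limma adjusted p = 0.664, 0.858 and 0.188).

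Fbxo30, the ligase named MUSA1 that BMP signalling holds down in mouse muscle, was called at day 2 higher in cast legs and lower in the left legs of tenotomy animals, so that the right leg was the higher leg in both models. Cast legs spanned 122.1 to 193.2 (median 139.4), against 94.45 to 142.0 (median 125.8) in control legs, with 7 of 9 animals higher in the cast leg (difference 0.24, SE 0.07, limma adjusted p = 0.0109). That call was lost with animals fitted as fixed blocks (adjusted p = 0.0635), and its probe sets disagreed: 3 were higher and 1 was lower (-0.43, adjusted p = 0.00835), with a mean that was not called (adjusted p = 0.178). In tenotomy animals it was 81.32, 59.25, 60.96, 90.92 and 81.7 in left legs, against 108.5, 76.28, 90.49, 93.72 and 99.85 in right legs. The groups overlapped, 3 of 5 animals were lower in the left leg, and the difference was -0.32 (SE 0.10, limma adjusted p = 0.0081). It was lost without left leg replicate 2 or 3 or right leg replicate 1 (adjusted p = 0.0663, 0.0630 and 0.0510) and after quantile normalization (-0.16, adjusted p = 0.221).

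Fbxl4 was the member with the smallest casting p at day 2. Cast legs spanned 247.6 to 304.3 (median 276.9), against 177.9 to 253.5 (median 199.2) in control legs, higher in 9 of 9 animals (difference 0.39, SE 0.07, limma adjusted p = 8.18e-06). At day 7 the cast legs spanned 197.8 to 310.5 (median 299.9), against 177.6 to 235.7 (median 202.5), a difference of 0.45 (SE 0.08, limma adjusted p = 2.48e-05). Fbxo38, a ligase that directs PD-1 degradation in T cells, spanned 112.9 to 144.0 (median 125.25) in cast legs at day 2, all above the control legs at 69.49 to 101.2 (median 93.5). Fbxo17, of the sugar-binding group, spanned 61.4 to 138.4 (median 76.85), against 45.25 to 74.12 (median 56.79) in control legs. The log2 differences were 0.45 for Fbxo38 (SE 0.10, limma adjusted p = 0.000117) and 0.52 for Fbxo17 (SE 0.11, limma adjusted p = 0.000146), each higher in 9 of 9 animals. Fbxo7, which binds the proteasome regulator PI31, Fbxo8 and Fbxo22, which targets histone demethylases of the KDM4 group, were also higher, by 0.31, 0.29 and 0.32. The Fbxo22 call was lost with the mean of its probe sets (0.09, adjusted p = 0.671).

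Fbxo44, a relative of the sugar-binding members, spanned 5.838 to 28.54 (median 12.195) in cast legs at day 2, against 3.891 to 7.857 (median 6.881) in control legs, a difference of 0.76 (SE 0.27, limma adjusted p = 0.0278). It was not called with animals fitted as fixed blocks (adjusted p = 0.0789) or with the mean of its probe sets (adjusted p = 0.0967). By the probe set that stood for each gene, Fbxo42, which targets p53, was the single member lower in cast legs at day 2, by -0.29. It was not called with the mean of its probe sets (adjusted p = 0.100). Of the probe sets of Fbxo28 and Fbxw11, 2 of 3 and 2 of 5 were called lower that day, with none higher, though neither gene was called. Fbxl17 was lower at days 7 and 14, by -0.32 and -0.20. Fbxo6 was lower at day 14 by -0.23, a call that was lost without the raised arrays (adjusted p = 0.106). Of 57 members, 6 changed between casting days 2 and 14, where 14.3 percent of all genes did (8.28 higher and 6.03 lower), and all 6 had the lower cast-minus-control difference at day 14. They were Fbxl4, Fbxo21, Fbxo31, Fbxo38, Fbxo6 and Fbxo8, with changes of -0.30, -0.42, -0.47, -0.56, -0.39 and -0.41 on the log2 scale.

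No leg call was made for Fbxo25, the closest relative of atrogin-1. It spanned 67.36 to 118.5 (median 85.305) in cast legs at day 2, against 79.56 to 110.7 (median 87.24) in control legs (difference -0.06, limma adjusted p = 0.592). In tenotomy animals it spanned 83.79 to 105.0 in left legs at day 2, against 81.92 to 105.3 in right legs (adjusted p = 0.986). The groups overlapped in both cases. Fbxw11, a beta-TrCP protein that targets IkB, beta-catenin and period proteins, spanned 657.9 to 1194 (median 814.25) in cast legs, against 793.7 to 1201 (median 897.1) in control legs at day 2 (adjusted p = 0.259). Its left legs had 1324, 1132, 1370, 1069 and 1053, against 1017, 1138, 1027, 942.8 and 1031 in right legs (adjusted p = 0.213). Its probe sets disagreed: 2 of 5 were called lower in cast legs at day 2, and 1 was called in tenotomy animals on each day, higher in left legs at days 2 and 7 and lower at day 14. Fbxl21, a regulator of cryptochrome stability, had signals of 0.57 to 38.15 over all muscles and no leg call. Fbxo40 and Fbxl22 were not analysed here. Another 9 members were too dim to test, with mean signals of 1.42 to 5.18: Fbxo15, Fbxo43, Fbxl12os (an opposite-strand transcript that meets the symbol rule), Fbxw10, Fbxw18, Fbxo41, Fbxw21, Fbxw13 and Fbxl13.

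Whether the legs of the 2 models differed in their response was tested on the right leg minus the left leg, which is cast minus control in casting animals and the leg labelled control minus the leg labelled tenotomy in tenotomy animals. At day 2, 20 members differed between the models, 6 higher and 14 lower in tenotomy animals, against a background of 34.1 percent (19.8 higher and 14.3 lower). At day 7, 4 were higher and 7 lower, against 18.9 percent (11.1 higher and 7.82 lower), and at day 14, 2 were higher and 3 lower, against 8.14 percent (5.17 higher and 2.98 lower). Fbxo9 differed on all 3 days, by -1.36 (SE 0.15, limma adjusted p = 2.28e-13), -0.75 (SE 0.14, limma adjusted p = 2.06e-05) and -0.86 (SE 0.15, limma adjusted p = 1.56e-05). Its right leg was the higher leg after 2 and 14 days of casting and the lower leg in tenotomy animals on each day. Fbxo31 differed at days 2 and 7, by -0.95 and -0.64, and Fbxo33 by 1.05 and 0.57. If the left leg was operated, as the labels have it, Fbxo9 and Fbxo31 were higher in the treated leg of both models at day 2. If the right leg was operated, as the design text has it, they were higher in the cast leg and lower in the tenotomy leg. Which leg was operated cannot be told apart from leg side here. The later Fbxo33 difference was not called with animals fitted as fixed blocks (adjusted p = 0.05001).

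The left-to-right difference alone does not say which leg departed from sham-operated muscle. Each leg of the tenotomy animals was therefore also set against sham muscles of the same day. These comparisons share their sham muscles, which were all right legs of other animals, with no age in the labels. Cohort in both comparisons, and leg side in that of the left legs, cannot be told apart from the surgery. The log2 ratio of 3' to 5' actin probe sets, a measure of RNA integrity, had medians of 0.135, 0.178 and 0.140 in right legs and -0.896, -0.294 and -0.630 in left legs at days 2, 7 and 14, against -1.34, -1.26 and -1.08 in sham. Fibre markers were lower than sham in right legs (5, 5 and 0 of 5) and in left legs at day 7 (4 of 5). The part of either in the differences from sham was not tested. In right legs at days 2, 7 and 14, 11, 12 and 10 members were higher and 10, 13 and 10 lower than sham. Of all genes, 35.1, 41.3 and 36.0 percent were called there, with 19.6, 23.6 and 20.6 percent higher and 15.5, 17.7 and 15.3 percent lower. In left legs 3, 6 and 9 members were higher and 4, 5 and 8 lower. Of all genes, 10.1, 19.2 and 20.8 percent were called in left legs, with 4.36, 9.71 and 10.0 percent higher and 5.69, 9.47 and 10.8 percent lower. In the right leg Fbxo3, Fbxo9, Fbxo44, Fbxo45, Fbxo8 and Fbxw5 were lower than sham on each day, and Fbxl12, Fbxo11, Fbxo22, Fbxo33 and Fbxw17 were higher on each day. Fbxo9 was -1.20, -0.95 and -0.64 from sham in the right leg and -0.21, -0.28 and -0.05 in the left leg, of which only -0.28 was called (limma adjusted p = 0.0483, and 0.0509 without the raised arrays). Fbxo3 was -0.98, -0.43 and -0.37 from sham in the right leg (limma adjusted p = 1.24e-15, 7.89e-08 and 1.53e-05), and with the mean of its probe sets days 7 and 14 were not called (adjusted p = 0.484 and 0.359). In left legs Fbxo3 was lower than sham at day 2 (-0.46, SE 0.09, limma adjusted p = 0.00032), a call that was lost with the mean of its probe sets (-0.19, adjusted p = 0.283). Fbxo33 was 1.33, 1.02 and 0.47 from sham in the right leg. The last of these calls was lost without right leg replicate 3 (adjusted p = 0.0720) and after quantile normalization (adjusted p = 0.106). In left legs Fbxo33 was higher than sham at day 7 (0.38, SE 0.14, limma adjusted p = 0.0424), which was lost after quantile normalization (adjusted p = 0.126).

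Some members departed from sham in both legs. Fbxo11, which targets the repressor BCL6, was higher by 0.62, 0.89 and 0.85 in right legs and by 0.73, 0.83 and 0.61 in left legs. Its signals at day 7 were 114.3 to 161.5 in left legs and 133.5 to 173.4 in right legs, all above the sham muscles at 63.1 to 102.5. Fbxl12 was higher by 0.48, 0.26 and 0.49 in right legs and by 0.44, 0.33 and 0.46 in left legs. Fbxo44 was 3.61, 13.12, 7.064, 4.168 and 5.482 in left legs at day 2 and 4.991, 3.81, 3.222, 2.589 and 2.464 in right legs, all below the sham muscles at 13.89, 32.35 and 27.41. Its differences from sham were -1.90, -1.82 and -1.13 in right legs and -1.42, -1.13 and -1.03 in left legs. Fbxo44 was also lower in the uncast legs of casting animals than in naive muscle, by -1.02, so a lower level was not particular to tenotomy animals. Fbxo44 was dim, with a mean signal of 12.4 over all muscles, and its right legs at day 2 lay under the filter level of 9.649 to 17.84. Fbxo30 was lower in left legs on all 3 days, by -0.56, -0.59 and -0.72, and in right legs at days 7 and 14, by -0.62 and -0.51. With the mean of its probe sets the Fbxo30 values at day 7 turned to 0.01 in right legs and 0.06 in left legs (adjusted p = 0.961 and 0.756), and those at day 14 were not called (adjusted p = 0.259 and 0.135).

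**Figure D5:**
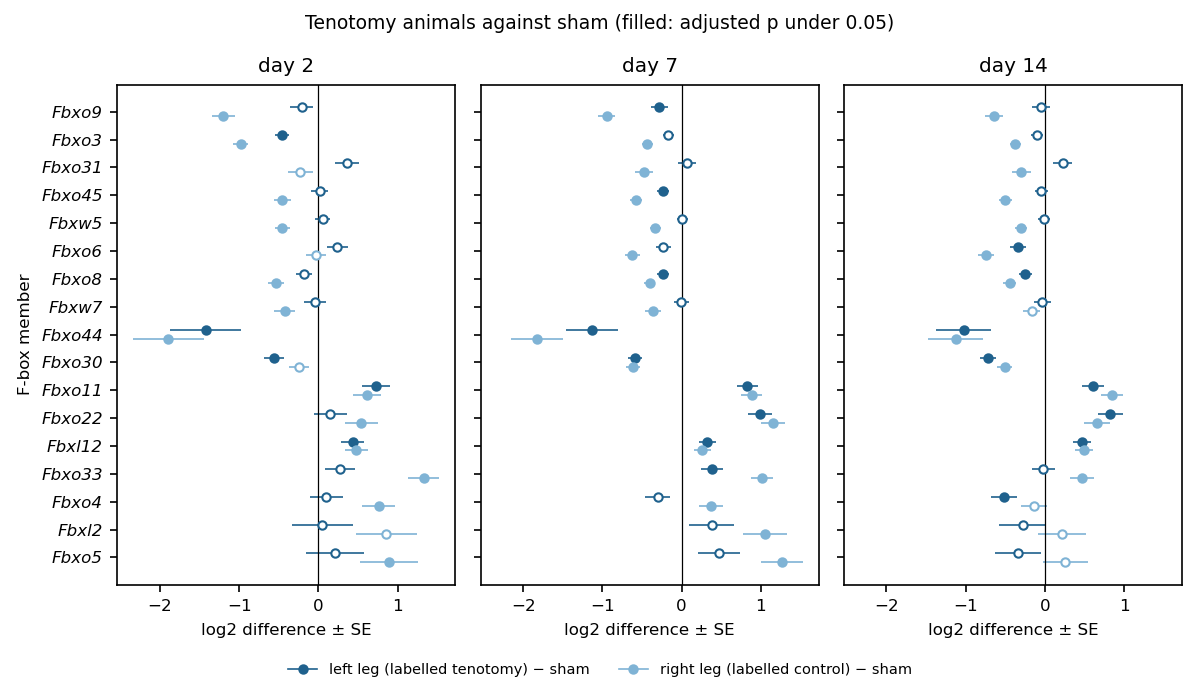
Log2 difference from sham (± SE) of 17 members in left legs (labelled tenotomy) and right legs (labelled control) of tenotomy animals at days 2, 7 and 14; filled points have an adjusted p under 0.05. Fbxo9, Fbxo3 and Fbxo33 lie at -1.20, -0.98 and 1.33 in right legs at day 2 and at -0.21, -0.46 and 0.27 in left legs, while Fbxo11 lies at 0.62 in right legs and 0.73 in left legs.

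Sham surgery itself gave no member call against naive muscle at day 2, 7 or 14 by limma, with 5, 6 and 8 members at an unadjusted p under 0.05, where 0, 0.630 and 2.23 percent of all genes were called. The uncast legs of casting animals, averaged over days, differed from naive muscle in 16 members (10 higher and 6 lower), against 32.6 percent of all genes (19.9 higher and 12.7 lower). Fbxo22 and Fbxo33 were higher there by 0.76 and 0.71, and Fbxo44 and Fbxo9 were lower by -1.02 and -0.35. Each of these went the same way in the right legs of tenotomy animals against sham on each day. The same legs serve as the control of the cast legs, so a cast-minus-control difference is measured from that level. All 9 macrophage markers were higher and all 5 fibre markers lower in uncast legs than in naive muscle, and their part in these differences was not tested.

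The partners of the F-box proteins were counted beside them. Of 15 tested SCF core genes and cofactors, 3 were higher and 1 lower in cast legs at day 2, against 11.0 percent of all genes higher and 13.3 percent lower. In left legs of tenotomy animals at day 2, 8 were higher and 1 lower, against 15.9 and 20.8 percent of all genes. Their median log2 difference was 0.05 after casting, against -0.03 over all genes, and 0.35 in tenotomy animals, against -0.02. Cul1, the scaffold, was higher in cast legs on each day, by 0.47, 0.29 and 0.21. Skp1, the adaptor, was higher by 0.32 in cast legs and by 0.35 in left legs at day 2, and the ubiquitin-conjugating enzyme Ube2d1 was higher in left legs by 0.68, 0.51 and 0.38. Skp1 was lower than sham in right legs on each day and in left legs at days 7 and 14. Ube2d1 was lower than sham in right legs on each day and higher in left legs at day 7. Cand1, which exchanges F-box proteins on Cul1, was lower in left legs by -0.77 and -0.64 at days 2 and 7, and its muscle relative Cand2 was higher by 0.45 and 0.57 there and lower in cast legs by -0.29 at day 2 and -0.41 at day 14. Against sham at days 2, 7 and 14, 1, 3 and 0 of the 15 SCF genes were higher in right legs and 7, 8 and 7 lower. In left legs 1, 3 and 1 were higher and 1, 3 and 2 lower. Of all genes, 19.6, 23.6 and 20.6 percent were higher and 15.5, 17.7 and 15.3 percent lower in right legs. In left legs 4.36, 9.71 and 10.0 percent of all genes were higher and 5.69, 9.47 and 10.8 percent lower.

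Cullins are switched on by the attachment of Nedd8 and off by the COP9 signalosome. Of 10 tested neddylation genes, 1 was higher and 5 were lower in cast legs at day 2 (all genes 11.0 and 13.3 percent), and 1 was higher and 0 lower in left legs at day 2 (all genes 15.9 and 20.8 percent). Against sham, 6, 8 and 8 of 10 were lower in right legs and 4, 3 and 7 in left legs. Dcun1d2, a Nedd8 ligase cofactor, was -0.60 in cast legs (SE 0.06, limma adjusted p = 9.1e-14) and 0.62 in left legs (SE 0.08, limma adjusted p = 9.2e-10). Of 9 COP9 genes, 2 were higher in cast legs at day 2, and 3, 1 and 3 were higher in left legs over the tenotomy days, with none lower. Against sham, 5, 9 and 7 of the 9 COP9 genes were lower in right legs and 1, 5 and 2 in left legs, with none higher. Of all genes, 15.5, 17.7 and 15.3 percent were lower in right legs and 5.69, 9.47 and 10.8 percent in left legs. Of 5 tested F-box proteins under other symbols, 0 were higher and 1 was lower in left legs at day 2 (all genes 15.9 and 20.8 percent). That 1 was Ccnf (cyclin F), by -1.54 (SE 0.34, limma adjusted p = 0.00012). All 3 tested markers of dividing cells were lower there too, and their part was not tested. At day 7 Ccnf and Kdm2b were lower (all genes 18.4 percent). Against sham, 4, 2 and 2 of the 5 were higher in right legs (all genes 19.6, 23.6 and 20.6 percent). In left legs 2, 2 and 1 were higher (all genes 4.36, 9.71 and 10.0 percent), with none lower in either leg.

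The called differences in tenotomy animals stood beside shifts in other cells. All 9 macrophage markers were lower in left legs at days 2 and 7 and 8 of 9 at day 14, and 4, 5 and 4 of 5 fibroblast markers were lower. In casting animals the macrophage markers ran the other way between days: 7 of 9 were lower in cast legs at day 2 and 9 of 9 higher at day 14. The actin ratio given above also differed between the legs of tenotomy animals. In cast legs its medians were -0.703, -0.649 and -0.633 at days 2, 7 and 14. In the control legs of casting animals they were -0.774, -0.434 and -0.290, and in naive muscle -1.18. The part of these markers and of RNA quality in the F-box differences was not tested.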

How the data were processed

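Gene expression was measured on 111 arrays, 1 per gastrocnemius muscle, in 16 groups. The authors deposited signal intensities on a linear scale, made with MAS5 in GCOS per the submitters' processing notes, whose versions are not given in the sources used here. They had been scaled before deposit, since every array's mean after trimming 2 percent at each end was 99.955 to 99.965. RNA came from Trizol and RNeasy columns, per the labels' protocols. Signals were not counts, and the number of arrays limits precision.

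Signals were analysed as log2(signal + 3.984), the added value being the 20th percentile of all signals, so fold changes of dim genes are understated. Probe sets above the array's 40th percentile (9.649 to 17.84) in at least 5 arrays were tested, and the probe set with the highest mean stood for its gene. Gene symbols came from the platform annotation and were updated through RefSeq. One model of limma 3.58.1 (R 4.3.3, version 1.17.8 of data.table) held all 16 group means, animal as a random block (duplicateCorrelation, 0.0965) and a variance trend (prior degrees of freedom 8.60). Each of 21 comparisons was adjusted by Benjamini and Hochberg's method over 16029 genes. Animal numbers in the labels pair the legs of 41 animals, 25 in casting and 16 in tenotomy. The mean correlation between residuals of the 2 legs was 0.0634, with 13 of 41 pairs over 0.1. Treatment, leg side and cohort cannot be told apart within a model.

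The members and lists were chosen with earlier results of these data known. Any member past the threshold could be named. Values by muscle are given for members called in at least 2 of the 6 leg comparisons with an absolute log2 difference of at least 0.5 in any of them, and for the muscle or clock-related members Fbxo21, Fbxo30, Fbxo31, Fbxo25, Fbxl21 and Fbxw11; values of some further members with calls were added after their values were seen. On simulated data of these arrays, 65 of 100 genes changed by a log2 of 0.5 and 86 of 100 changed by 1 were recovered for cast against control legs at day 2, and 44 and 80 for tenotomy animals at day 2, among 16029 genes. Only 100 genes of each size were changed there, while 3895 and 5894 genes were called in the measured comparisons. The adjusted p depends on that share, so these recoveries do not give the recovery in the measured comparisons. The alternatives were other pseudocounts, filters, normalization, array weights, blocks, probe-set rules and arrays. Promoters were taken from a RefSeq table of build GRCm38.p6. Figures used Python 3.11.15 with pandas 2.3.3, numpy 2.4.6 and matplotlib 3.10.9.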

Additional observations from a re-analysis of the deposited data

Results flagged for a closer look

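Among the members given by muscle, 19 of 240 member and group combinations held a muscle far from the others of its group, where chance flags about 1 in 20 groups. Fbxl15 was 8.811 in left leg replicate 3 of tenotomy animals at day 14 (others 30.73 to 40.6), 27.02 in control leg replicate 3 of casting animals at day 14 (others 37.58 to 51.11) and 54.68 in naive replicate 6 (others 29.5 to 34.96). Fbxl2 was 0.839 in left leg replicate 3 at day 2 (others 7.096 to 8.268), 0.4727 in left leg replicate 4 at day 14 (others 7.703 to 9.054) and 1.448 in casting control leg replicate 8 at day 2 (others 6.321 to 15.4). Fbxl21 was 0.7529 in right leg replicate 2 at day 2, and Fbxl8 was 19.37 in left leg replicate 2 at day 14, where the others were 2.192 to 4.687. Fbxo5 was 2.291 in left leg replicate 2 at day 7 and 4.617 in cast leg replicate 4 at day 7.

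Fbxo31 was 995.8 in left leg replicate 2 at day 7 and 1101 in cast leg replicate 5 at day 7, both above the rest of their groups. Fbxo3 was 744.1 in cast leg replicate 6 at day 2 (others 899.8 to 1048), and Fbxo4 was 57.09 in right leg replicate 4 at day 7 (others 30.16 to 39.59). Fbxw5 was 317.5 in left leg replicate 4 at day 2 and 326.2 in sham replicate 2 at day 14. Fbxw8 was 280.4 in left leg replicate 2 at day 14 and 399.3 in cast leg replicate 1 at day 2, both above the rest. Fbxw11 was 543.3 in cast leg replicate 6 at day 14 (others 882.4 to 1210), an array with a raised low end.

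The right-minus-left difference of tenotomy animals minus that of casting animals passed the test for several of these members. At day 2 it was -1.36 for Fbxo9, -0.95 for Fbxo31, -0.64 for Fbxo3, -0.58 for Fbxw5, -0.49 for Fbxo21, 0.72 for Fbxo4, 1.05 for Fbxo33 and 1.14 for Fbxl2 (limma adjusted p at most 0.0166). At day 7 it was -0.75 for Fbxo9, -0.64 for Fbxo31, -0.43 for Fbxw5, -0.40 for Fbxo3, 0.55 for Fbxo4, 0.57 for Fbxo33 and 1.29 for Fbxl8 (limma adjusted p at most 0.0486). At day 14 it was -0.86 for Fbxo9, -0.32 for Fbxw5 and 1.12 for Fbxl15 (limma adjusted p at most 0.0235). The Fbxw5 call at day 14 was lost without left leg replicate 2 or 5 or right leg replicate 2 (adjusted p = 0.0551 to 0.0836) and with animals fitted as fixed blocks (adjusted p = 0.0672). The Fbxo4 call at day 7 was lost under 7 alternatives (0.28 with the mean of its probe sets, adjusted p = 0.499). The Fbxl2 call at day 2 was lost without left leg replicate 3 or right leg replicate 4 (adjusted p = 0.0784 and 0.0631). The Fbxo21 call at day 2 was lost with the mean of its probe sets (adjusted p = 0.0662) and without right leg replicate 1 (adjusted p = 0.0504). The Fbxo33 call at day 7 was lost with the fixed blocks (adjusted p = 0.05001). The cast-minus-control difference was lower at day 14 than at day 2 by -0.42 for Fbxo21 and by -0.47 for Fbxo31.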

How the results depend on the processing

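The counts of called members moved by over 1.5 times under these settings. After casting, the 4 calls at day 7 became 2 with no replicate block, without the 3 arrays whose low end was raised or with only the groups compared, and the 5 at day 14 became 2 with the animal as a fixed replicate block, 2 with no replicate block, 3 with the mean of probe sets, 2 without the raised arrays and 1 with only the groups compared. The 11 tenotomy calls at day 14 became 7 with the fixed replicate block and 7 with only the groups compared. For left legs against sham, 7 calls at day 2 became 4 with the mean of probe sets, 11 at day 7 became 7 after quantile normalization and 17 at day 14 became 11 with only the groups compared. The 5 differences between models at day 14 became 8 with array weights and 3 with the mean of probe sets. The single tenotomy change between days 14 and 2 became 2 with the fixed replicate block, the mean of probe sets or only the groups compared, and sham against naive at day 7 went to 1 with the mean of probe sets. The fixed replicate block moved no other count by over 1.5 times. The cause was not tested in any of these.

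Leaving out 1 muscle at a time gave 15 to 20 tenotomy calls at day 2 and 8 to 12 at day 14. It gave 16 to 20 and 18 to 21 calls for right legs against sham, 3 to 7 and 13 to 15 for left legs against sham (3 without sham replicate 2 and 4 without sham replicate 3, at day 2), 17 to 21 and 3 to 5 between models (3 without right leg replicate 2, at day 14), and 1 to 2 for the tenotomy time comparison. Fbxo30 against sham at day 7 reversed with the mean of its probe sets, to 0.0081 in right legs and 0.0579 in left legs. Of 122 called results of single members, 29 were lost with the mean of probe sets, 23 with only the groups compared, 14 after quantile normalization, 12 with no replicate block, 9 without the raised arrays, 8 with no filter, 7 with array weights, 4 with a pseudocount of 16 and 2 with a pseudocount of 1. The fixed replicate block lost 16 of 87 and the stricter filter 0 of 107. Members near the low end of the arrays, such as Fbxl2, Fbxl8, Fbxo5, Fbxo24 and Fbxo44, are the least precise.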
